A study of Arabidopsis thaliana with 4 samples.

Results

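GDSL-type esterases and lipases are a large plant family of hydrolases with a flexible active site, named after the glycine, aspartate, serine and leucine residues around the catalytic serine. Many carry a signal peptide and are secreted to the cell wall, and members are known to build or cut the cutin and wax of the cuticle, to lower seed oil, to act in pollen coats and to take part in defence. In leaves the family is best known from the epidermis, where the cuticle limits water loss. Abscisic acid (ABA), the hormone of drought responses, closes stomata and changes the expression of many genes in shoots.

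The genes described here are 59 Arabidopsis thaliana loci of this family, and a probe set of the array was named for 39 of them among 11365 genes named in all. The remaining 20 loci, among them ESM1, LTL1, CDEF1 and AT5G33370, were not analysed here. Of the 39 genes, only AT1G28590 had more than 1 probe set, and the brighter by mean over the 4 arrays stood for it. Members were listed by locus as genes of the family. Shares, medians and ranks given below for the family refer to the 39 genes with a named probe set, not to all GDSL genes.

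Wild-type Col-0 seedlings, 14 days old and grown on upright plates in 24 h light, were covered for 5 min with 100 uM ABA in basal salts with 0.1% Tween 20, a wetting agent, or with the mock solution (MS-Tween), and shoots were collected 4 h later. The ABA group and the mock group each had 2 arrays, each hybridised with RNA from a pool of 20 to 24 shoots, and both groups share strain, age, plates and wetting agent. The labels call the replicates biological. A shoot mixes many cell types, so fewer cells of a type and less RNA per cell cannot be told apart.

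Each probe set has 1 deposited intensity per array, on a linear scale from which some background was removed, so dim probe sets can fall below 0. The noise level used here, the size of the 1st percentile of all tested probe sets, reached 8.76 on the noisiest array. Changes were tested on log2(intensity + 16), with negative intensities set to 0, by limma over 19371 probe sets, and p-values were adjusted by the Benjamini-Hochberg method with a threshold of 0.05. Array medians were 12.4 and 12.9 after ABA, against 16.9 and 17.0 after mock, and the median log2 change of all probe sets was -0.13. That median was -0.0048 after quantile normalization, 0.070 after median centring and -0.34 when arrays were scaled to 9 spiked control sets, which were higher by 0.11 to 0.74 on the ABA arrays. Leaf mesophyll markers were bright, with 3 of 8 named and a summed intensity of 3367 to 3520 after ABA and 4793 to 5107 after mock. Root markers, with 3 of 5 named, summed to 114 to 130.4 after ABA and 293 to 335 after mock. Most of each sum came from PYK10 (AT3G09260), at 104.0 and 119.9 after ABA, against 320.5 and 279.7 after mock. The root markers did not share a direction. PYK10 was called lower, as was BGLU21, at 14.2 or less on each array. The root hair marker AT1G12560 was called higher (limma adjusted p = 0.0491), on values below the noise level. Seed markers were not analysed here. The part of the marker genes in the results below was not tested.

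Among the 39 GDSL genes, 7 were lower after ABA and 5 were higher, while 27 did not pass the threshold (limma adjusted p). The share that was lower, 17.9%, stood beside 19.6% of all probe sets, so the lower count was near the background. The share that was higher, 12.8%, stood beside 3.97% of all probe sets, and this difference in shares was not tested. The members were chosen with earlier results of these data known, so such shares are descriptions only. Changes ran from -1.56 for AT1G33811 to 1.43 for AT2G04570, with a median of -0.15 for the family. Calls of 2-fold or more numbered 3 lower genes and 1 higher gene, beside 2.01% and 1.36% of all probe sets. Both ABA arrays lay below both mock arrays in 20 genes, against 50.8% of all probe sets, and above them in 9 genes, against 15% of all probe sets. The arrays of the groups overlapped in the other 10. All 12 calls were lost when any 1 of the 4 arrays was left out, as were all other calls of the series. Those fits leave 1 array in a group and 1 residual degree of freedom, so this loss is not particular to GDSL genes. In those fits the median log2 change of the 39 genes was -0.16 to -0.15, beside -0.15 to -0.13 for all probe sets.

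**Figure D1:**
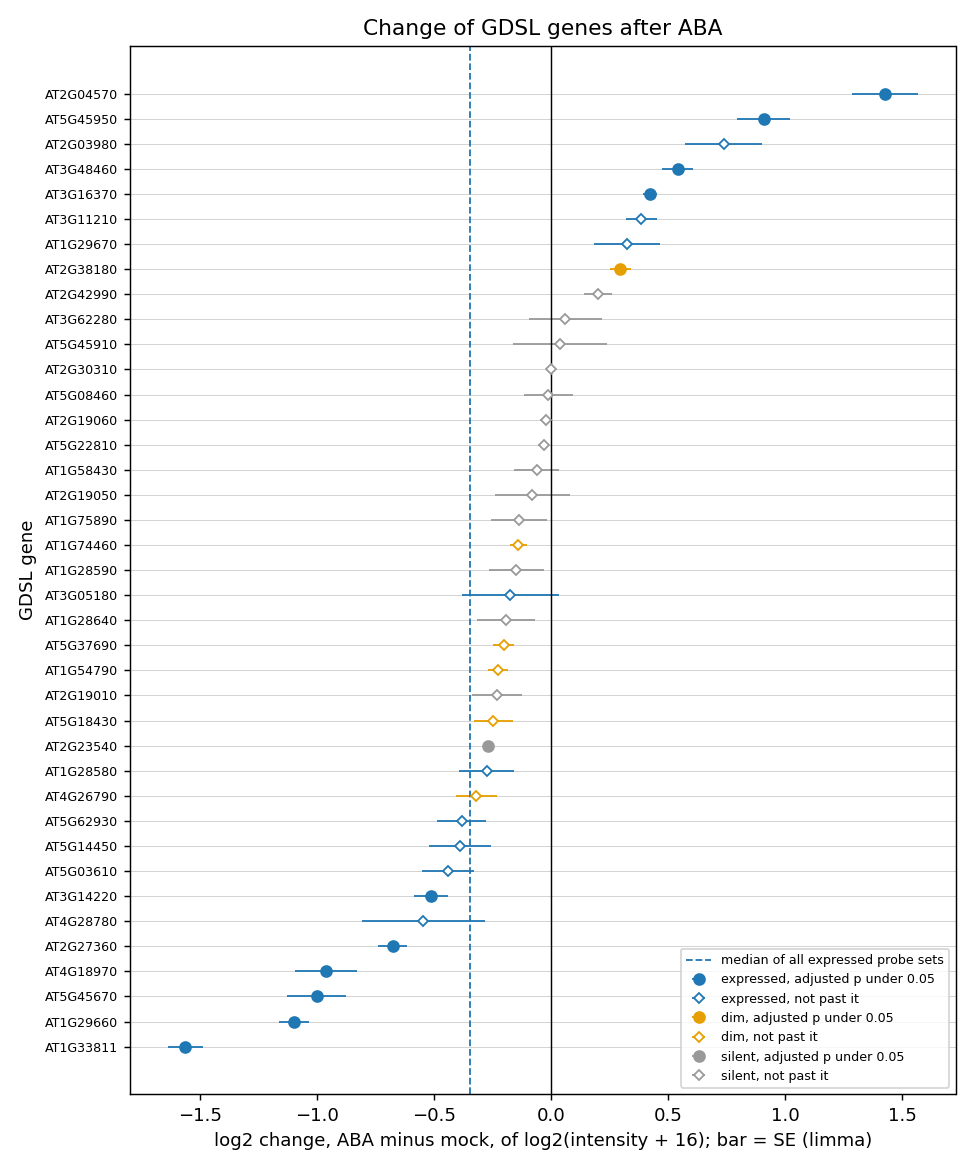
Log2 change of the 39 GDSL genes, ABA minus mock, on the log2(intensity + 16) scale (x axis), with 1 gene per line (y axis), bars for the SE from limma and filled circles for an adjusted p under 0.05. Changes reach from -1.56 (AT1G33811) to 1.43 (AT2G04570), and the dashed line marks the median of all expressed probe sets at -0.35.

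The family split by how bright its probe sets were. A mean over the 4 arrays of 32 or more was called expressed, a mean at or under the noise level was called silent, and the range between was called dim. By this rule 19 genes were expressed, 6 were dim and 14 were silent, or 48.7%, 15.4% and 35.9% of the family, beside 36.4%, 22.8% and 40.8% of all probe sets. AT5G14450, at a mean of 33.9, was the lowest of the expressed genes, and AT4G26790, at 27.2, was the highest of the dim ones. A silent probe set says only that its signal did not rise above the noise, not that the gene is off.

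Of the 12 calls, 10 fell among the expressed genes. Of these 19 genes, 6 were lower (31.6%, against 36.7% of all expressed probe sets) and 4 were higher (21.1%, against 6.66%). Their median change of -0.38 was close to the median of all expressed probe sets, -0.35, and 9 of the 19 lay above that median and 10 below it. The 6 dim genes held 1 higher call, AT2G38180, and 0 lower calls, against 3.54% and 21.6% of all dim probe sets. At an unadjusted p under 0.05 in limma, the family as a whole had 13 lower and 8 higher genes. These were 33.3% and 20.5% of its members, against 33.3% and 7.19% of all probe sets. Since the members were chosen with earlier results known, these shares and those of the expressed genes are descriptions only. Among the 14 silent genes 1 was called lower, AT2G23540, and 0 higher, against 3.39% and 1.81% of all silent probe sets, and their median change was -0.047, against 0 for all silent probe sets.

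**Figure D2:**
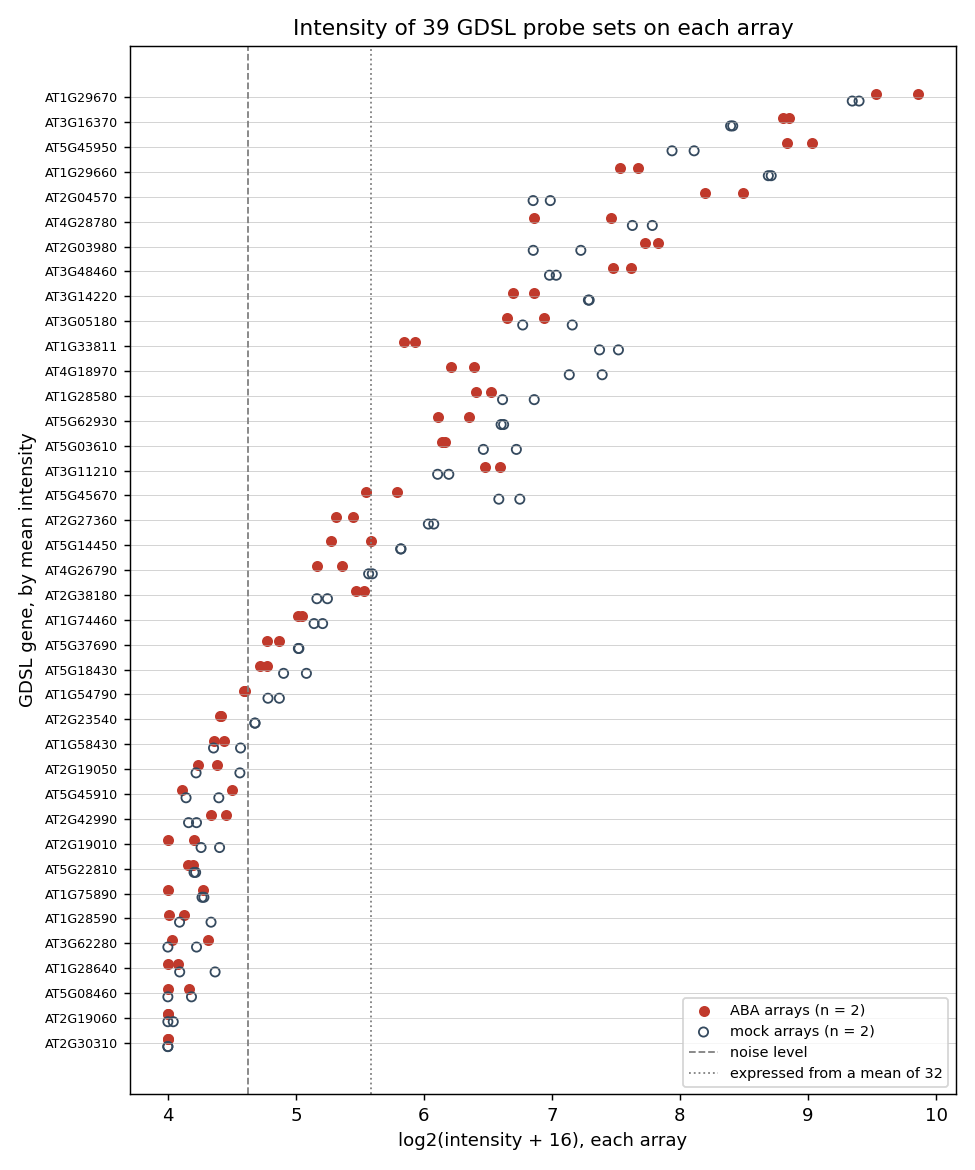
Intensity of the 39 GDSL probe sets on each array as log2(intensity + 16) (x axis), with genes ordered by mean intensity (y axis), filled points for the 2 ABA arrays and open points for the 2 mock arrays. The dashed line is the noise level of 8.76 and the dotted line the mean of 32 from which a gene was called expressed. For AT2G04570 the ABA arrays read 277 and 345 against 111 and 99.6 on the mock arrays, and the 14 genes at the bottom have means at or under the noise level.

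AT2G04570 had the largest rise in the family. It encodes OSP1, a GDSL lipase known to be needed for wax synthesis and for the cuticular ledges that frame the stomatal pore. Its intensity was 277 and 345 on the ABA arrays, against 111 and 99.6 on the mock arrays. Both ABA arrays lay far above both mock arrays. The ABA mean was 2.96 times the mock mean, and the log2 change was 1.43 (SE 0.14, limma adjusted p = 0.0271). The change stayed above 0 under each scaling tried, from 0.98 with spike scaling to 1.68 after quantile normalization. Of 4 guard cell lineage markers 2 were named. AT3G24140, which encodes FAMA, had intensities of 21.6 and 23.9 after ABA, against 43.7 and 34.5 after mock, a log2 change of -0.50 and no call (limma adjusted p = 0.0761), while AT3G06120, which encodes MUTE, was silent. How these markers relate to the rise of AT2G04570 was not tested.

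AT5G45950 was among the brightest members and rose next in size. It read 440.0 and 508 after ABA, against 260.4 and 229 after mock, with no overlap between the groups. The ratio of the means was 1.94 and the log2 change 0.91 (SE 0.11, limma adjusted p = 0.0346). Under spike scaling the rise was 0.44, and it still passed.

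AT3G48460 and AT3G16370 rose by smaller amounts. AT3G48460, known as SFAR4 of the SEED FATTY ACID REDUCER group, whose members lower the fatty acid content of seeds, had 162 and 180.2 after ABA, against 110.3 and 115 after mock. AT3G16370 had 430.2 and 446 after ABA, against 325 and 321 after mock. In both genes the ABA arrays lay above the mock arrays by more than the replicates differed. Their log2 changes were 0.54 (SE 0.066, limma adjusted p = 0.0336) and 0.42 (SE 0.029, limma adjusted p = 0.0201). Neither call held under spike scaling, where AT3G48460 stood at 0.099 and AT3G16370 turned to -0.049.

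The largest fall was that of AT1G33811. Its intensity was 44.8 and 41.3 after ABA, against 149.6 and 167 after mock. Both ABA arrays thus read well below both mock arrays. The ABA mean was 0.272 times the mock mean, with a log2 change of -1.56 (SE 0.075, limma adjusted p = 0.0173). It passed under each scaling tried, from -1.28 after quantile normalization to -1.96 with spike scaling.

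AT1G29660 also fell by more than 2-fold. It read 169 and 188 after ABA, against 397 and 404 after mock, with a log2 change of -1.10 (SE 0.064, limma adjusted p = 0.0186). The gap between the groups was many times the gap between replicates. With AT1G33811 it was the only member called lower after quantile normalization, at -0.87.

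Further falls were seen in AT5G45670, AT4G18970, AT2G27360 and AT3G14220. AT5G45670 had 39.3 and 30.7 after ABA, against 80.0 and 91.6 after mock, and an ABA mean of 0.408 times the mock mean (limma adjusted p = 0.0350). AT4G18970, known as SFAR5 of the same seed oil group as AT3G48460, had 58.3 and 67.9 after ABA, against 124.6 and 152 after mock, and a log2 change of -0.96 (limma adjusted p = 0.0394). The groups did not overlap in either gene. AT2G27360 read 27.6 and 23.8 after ABA, against 49.6 and 51.5 after mock, a log2 change of -0.68 (limma adjusted p = 0.0248). AT3G14220 read 87.6 and 99.9 after ABA, against 139.9 and 141 after mock, a log2 change of -0.51 (limma adjusted p = 0.0394). These 4 changes kept their sign but lost their call after quantile normalization, at -0.71, -0.68, -0.38 and -0.25 in the order named. AT3G14220 also lost its call after median centring (limma adjusted p = 0.0541) and with a pseudocount of 1 (limma adjusted p = 0.0520). With AT1G33811 and AT1G29660 they make up the 6 lower calls among expressed genes.

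**Figure D3:**
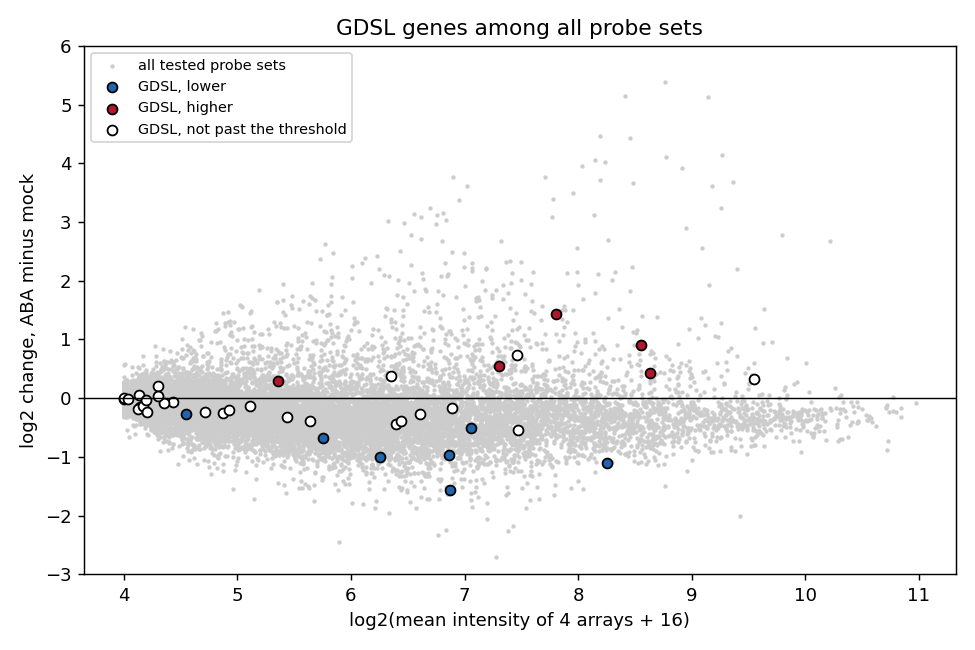
Log2 change, ABA minus mock (y axis), against the log2 of the mean intensity of the 4 arrays plus 16 (x axis), with all 19371 tested probe sets in grey and GDSL genes as large points, blue for lower, red for higher and white for not past the threshold. The grey cloud lies below 0 among bright probe sets, and AT2G04570 (1.43) and AT1G33811 (-1.56) are the members farthest from it on either side.

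Because bright probe sets shifted downwards as a whole, each expressed gene was also set against the median of all expressed probe sets. On that footing AT2G04570 stood 1.77 above the median, AT5G45950 stood 1.25 above it and AT3G48460 stood 0.89 above it. AT1G33811 stood 1.22 below, at a difference of -1.22, and AT1G29660 at -0.75, while AT3G14220 lay at -0.17, beside its log2 change of -0.51. These distances are descriptions and carry no test of their own.

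Some expressed genes differed between the groups without passing. AT2G03980 read 196 and 211 after ABA, against 134 and 99.7 after mock, a log2 change of 0.74 (SE 0.17, limma adjusted p = 0.0784), and passed only after median centring (0.94) and with the filter on dim probe sets. AT3G11210, of the CPRD49 group of esterases, which resemble the yeast enzyme that hydrolyses isoamyl acetate, had 72.9 and 80.7 after ABA, against 52.9 and 57.2 after mock (log2 change 0.38, limma adjusted p = 0.0528). It passed after quantile normalization at 0.68, after median centring at 0.59 and with the filter on dim probe sets, yet spike scaling put it at -0.011. Of its relatives in the esterase group, AT5G62930 had 65.7 and 53.1 after ABA, against 82.5 and 81.2 after mock, with a log2 change of -0.38 and no call (limma adjusted p = 0.109). The dim AT2G38180 had 30.2 and 28.4 after ABA, against 19.9 and 22.0 after mock, and was called higher at 0.30 (limma adjusted p = 0.0460). That call was lost with a pseudocount of 1 (0.0588), with a variance trend (0.0872) and under spike scaling, where the change was -0.0024.

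AT4G28780 had the largest SE among the 39 genes, with 100.4 and 159.8 after ABA, against 182 and 204 after mock. Its log2 change of -0.55 (SE 0.26) did not pass (limma adjusted p = 0.259), and it was -0.25 without ABA replicate 1 and -0.84 without ABA replicate 2. AT5G03610 had 54.6 and 55.7 after ABA, against 72.3 and 89.6 after mock, with a change of -0.44 (limma adjusted p = 0.0957). AT5G14450 had 31.95 and 22.8 after ABA, against 40.4 and 40.5 after mock, with a change of -0.39 (limma adjusted p = 0.151). In these 3 genes both ABA arrays lay below both mock arrays. AT3G05180 alone among the expressed genes had overlapping groups, at 106.5 and 84.1 after ABA, against 93.3 and 127 after mock. Across all probe sets of any brightness, 50.8% had both ABA arrays below both mock arrays and 15% above. These shares were not computed for expressed probe sets alone, so the separation is not shown to be particular to GDSL genes.

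The dim genes other than AT2G38180 were AT4G26790, AT1G74460, AT5G37690, AT5G18430 and AT1G54790. Their changes ran from -0.32 in AT4G26790 to -0.14 in AT1G74460, none passed, and in each the ABA arrays lay below the mock arrays. The median of all dim probe sets was -0.26, so these genes lay close to it. How often the arrays of both groups separate among all dim probe sets was not computed. AT5G37690 and AT5G18430 were read by probe sets that can bind related transcripts. AT1G54790, known as SFAR1, read 8.20 and 8.24 after ABA, against 13.3 and 11.5 after mock, with a change of -0.23 (limma adjusted p = 0.0574).

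All 5 SFAR genes had a named probe set, and they did not share a direction. AT3G48460 (SFAR4) was called higher and AT4G18970 (SFAR5) lower, while AT1G54790 (SFAR1) was dim. RXF26, the gene AT1G58430 (SFAR2), read 4.58 and 5.67 after ABA, against 4.49 and 7.71 after mock. AT2G42990 (SFAR3) read 4.19 and 5.87 after ABA, against 2.68 and 1.90 after mock. Both of the last lay below the noise level on each array, so their differences carry no information on direction.

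The 14 silent genes read between -7.46 and 9.65 on every array. AT2G23540, the silent gene that was called, read 5.29 and 5.24 after ABA, against 9.62 and 9.65 after mock (log2 change -0.27, limma adjusted p = 0.0201). Its replicates differed by less than 0.1, and its mock intensities only just passed the noise level of 8.76, so its call rests on values near the noise. The call was lost after quantile normalization (limma adjusted p = 0.0620) and median centring. AT1G75890, which encodes EXL2 of the extracellular lipases known from the pollen coat, had intensities of -2.15 and 3.37 after ABA, against 3.25 and 3.45 after mock. AT1G75920, which encodes EXL5 of the same group and is not among the 59 loci, was below 0 on both ABA arrays, at -4.90 and -2.78, against 0.678 and -6.58 after mock. The 2 pollen markers named, of 4 listed, were silent as well. AT2G30310 was below 0 on every array and carries no change. The remaining silent genes outside tandem clusters, AT3G62280, AT5G22810 and AT5G08460, did not pass.

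Many GDSL genes stand next to each other in the genome. A tandem cluster was taken as a run of the 59 loci whose locus numbers follow each other by 100 or less. This gave 7 clusters with 23 loci, of which 13 had a named probe set. With 2 arrays against 2, an exact permutation test cannot go below p = 0.333, so differences between neighbours are given as values. Levels of different probe sets cannot be set against each other, and only the change of their within-array difference is read.

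AT1G29660 and AT1G29670 are direct neighbours, and on the deposited scale only AT1G29660 passed the threshold. AT1G29670, the brightest member, read 726 and 913 after ABA, against 659 and 635 after mock, while AT1G29660 fell as described. The ABA arrays of AT1G29670 lay above its mock arrays, but its log2 change of 0.32 (SE 0.14) missed the threshold (limma adjusted p = 0.223). That change was 0.49 without ABA replicate 1, 0.16 without ABA replicate 2 and -0.16 under spike scaling. After quantile normalization it was 0.57 without passing. After median centring it was 0.53 and passed (limma adjusted p = 0.0459). The within-array log2 difference, AT1G29660 minus AT1G29670, was -2.001 and -2.18 on the ABA arrays, against -0.71 and -0.63 on the mock arrays. This shift of -1.42 between the groups did not overlap, and its exact permutation p (two-sided) was 0.333, the smallest possible. On the other side of AT1G29660 the nearest protein-coding gene, AT1G29640, was silent by its mean, at 10.3 and 8.23 after ABA, against 0.449 and 0.469 after mock, and was called higher (log2 change 0.62, limma adjusted p = 0.0241) on values near the noise.

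**Figure D4:**
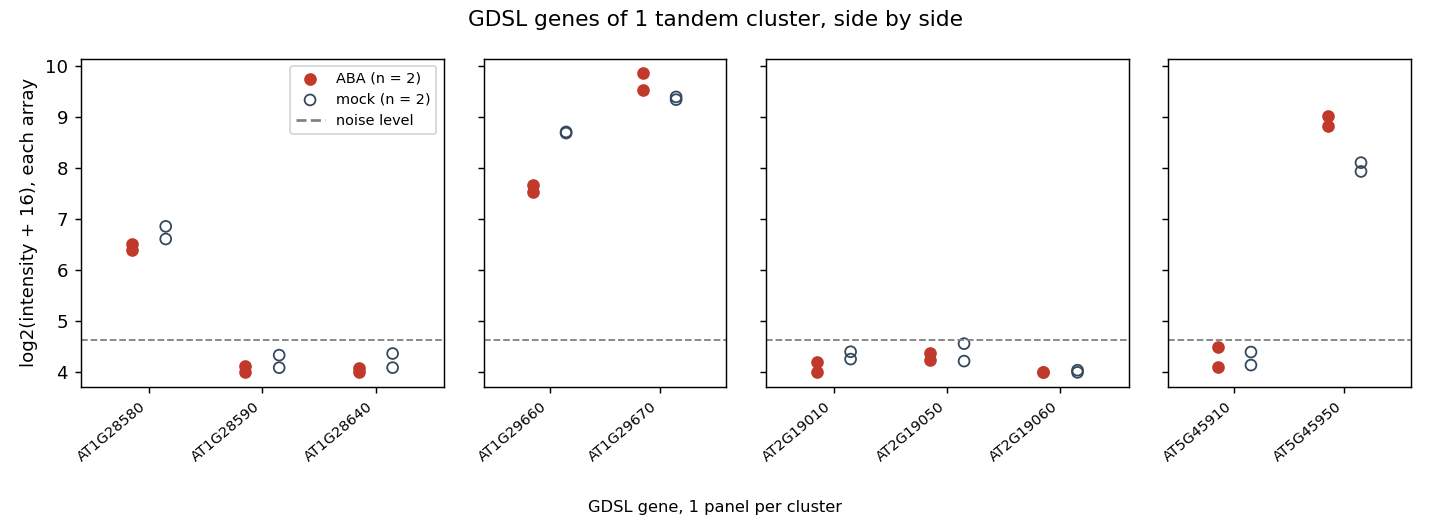
Intensity as log2(intensity + 16) on each array (y axis) for GDSL genes of the 4 tandem clusters with more than 1 named gene (x axis, 1 panel per cluster), with filled points for ABA, open points for mock and a dashed line at the noise level. The ABA points of AT1G29660 lie below its mock points, those of AT1G29670 do not, and AT5G45950 is bright and higher after ABA while AT5G45910 stays below the noise level.

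In the cluster of AT5G45910 and AT5G45950, 3 protein-coding genes lie between the members. AT5G45910 read 1.26 and 6.70 after ABA, against 1.66 and 5.08 after mock, below the noise level throughout. Of these members, only AT5G45950 thus gave a measurable response. Of the genes between, AT5G45920 read 10.7 and 14.6 after ABA, against 6.16 and 5.54 after mock (log2 change 0.39, limma adjusted p = 0.0762). Its ABA arrays lay above its mock arrays, as did those of AT5G45950. CHLI2, a magnesium chelatase subunit gene of chlorophyll synthesis, read 122 and 104 after ABA, against 147 and 133 after mock, and did not pass. AT5G45960, next to AT5G45950 on the far side, was silent. None of these 3 genes around AT5G45950 passed the threshold. Whether the genes between and beside members belong to the family was not examined here.

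The largest cluster, from AT1G28570 to AT1G28670, held 9 of the 59 loci within 10 consecutive protein-coding genes, and 3 were named. AT1G28580 was expressed, at 75.8 and 68.8 after ABA, against 100.3 and 82.0 after mock, a log2 change of -0.27 and no call (limma adjusted p = 0.218). Its direct neighbour AT1G28590 was silent by both of its probe sets, which read between -2.10 and 4.21, and so was AT1G28640, at 4.66 or less on each array. The probe sets used for AT1G28590 and AT1G28640 can bind related transcripts, and even so they gave no signal above the noise. In the cluster of AT2G19010, AT2G19050 and AT2G19060 all 3 genes were silent, at 7.63 or less on each array, and none passed. The clusters of AT1G75880, AT2G30220 and AT3G14210 each had 1 named member, AT1G75890, AT2G30310 and AT3G14220. AT3G14210, the direct neighbour of AT3G14220, is ESM1, known to modify the products of glucosinolate breakdown.

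Beyond these clusters, few of the genes next to expressed members were named. AT2G04570 lies between LpxB, of lipid A synthesis, which was silent, and AT2G04620, which read 9.75 and 5.31 after ABA, against 11.5 and 14.7 after mock, and did not pass. AT3G48450, beside AT3G48460, was silent too. AT5G03600, beside AT5G03610, was silent by its mean but called lower, at 1.44 and -0.828 after ABA, against 6.56 and 6.01 after mock (log2 change -0.42, limma adjusted p = 0.0394), on values below the noise level. AT5G14440, beside AT5G14450, was lower after ABA, at 62.3 and 55.5, against 96.3 and 107.9 after mock (log2 change -0.66, limma adjusted p = 0.0355).

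Other genes of the cuticle and of glucosinolate breakdown were scarcely covered by named probe sets. Of 14 wax synthesis genes 1 was named, WSD1 (AT5G37300), a wax ester synthase, which read 74.0 and 81.1 after ABA, against 38.1 and 34.0 after mock, and was higher (log2 change 0.85, limma adjusted p = 0.0230). Of 12 regulators 3 were named and 0 passed. DEWAX (AT5G61590), a repressor of wax synthesis genes, read 7.12 and 9.04 after ABA, against 40.1 and 70.0 after mock, a log2 change of -1.53 (SE 0.27, limma adjusted p = 0.0535). Both ABA arrays of DEWAX lay near the noise level. AT5G11190 and AT5G25390, of the SHINE group of cuticle activators, were silent. The 13 cutin synthesis genes, 10 lipid export and transfer genes and 11 glucosinolate breakdown genes listed were not analysed here.

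The scaling between arrays decided several calls. Of the 12 calls on the deposited scale, 7 remained after quantile normalization, 2 lower and 5 higher, and 10 after median centring, 5 lower and 5 higher. Under spike scaling the 7 lower genes and 2 of the 5 higher ones remained. AT2G04570, AT5G45950, AT1G29660 and AT1G33811 passed under all 3 alternative scalings.

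**Figure D5:**
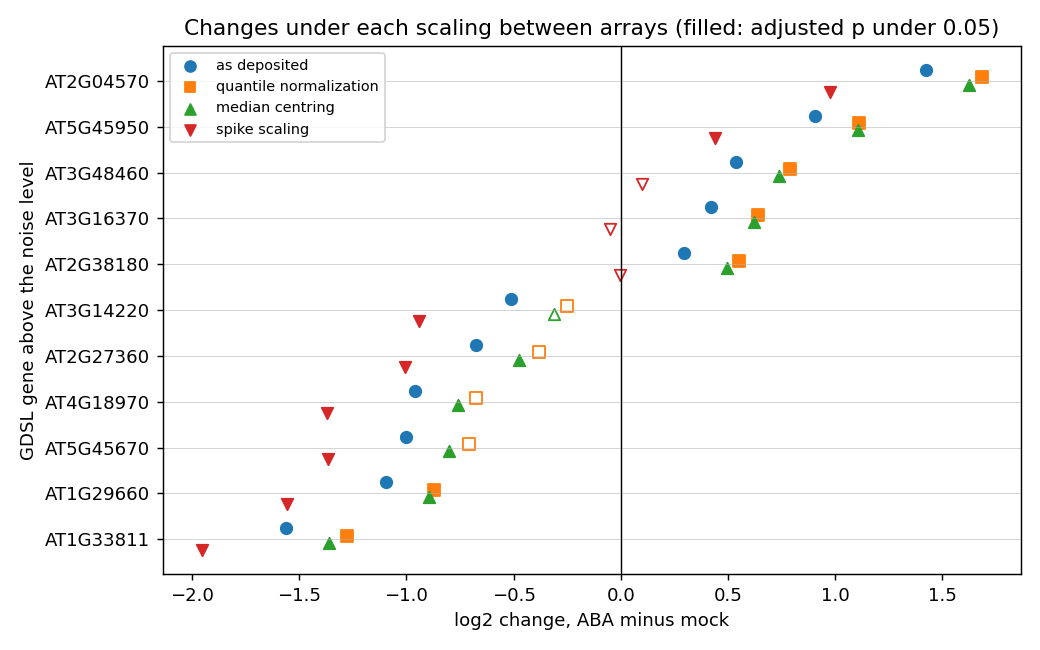
Log2 change, ABA minus mock (x axis), of the 11 called GDSL genes above the noise level (y axis) under 4 scalings between arrays, with filled markers for a limma adjusted p under 0.05 and open markers otherwise. AT2G04570 stays between 0.98 and 1.68 and AT1G33811 between -1.28 and -1.96, while AT3G16370 and AT2G38180 turn to just below 0 under spike scaling.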

How the data were processed

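RNA of Arabidopsis shoots was measured on 4 biotin-labelled 1-colour arrays, 2 after ABA and 2 after mock. The authors deposited 1 intensity per probe set and array on a linear scale; how background was corrected, probes summarised and arrays scaled is not given in these sources. The number of arrays limits the precision, and there is no read depth. The array's genome build is not stated in these sources either, so no coordinates are printed.

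Of 19658 probe sets, 287 controls were left out. The array's public annotation was matched to the TAIR10.1 gene table by gene identifier for 11547 probe sets and by locus for 45. Intensities under 0 were raised to 0 before taking log2(intensity + 16). ABA was compared with mock with limma 3.58.1 in R 4.3.3 (lmFit, eBayes, two-sided), adjusted over 19371 probe sets. The fit was tested on simulated data. A planned search for promoter motifs was not run, since no promoter sequences were used here. Each gene was represented by its brightest probe set. Every member is accounted for, and called, clustered, bright or functionally known members are given array by array. Alternatives covered scaling, pseudocounts of 1 and 64, a filter at the 40th percentile, a variance trend, a replicate block and leaving out each array. The members and gene lists were chosen with earlier results of these data known. The choice to set negative values to 0 was likewise made with those results known.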

Additional observations from a re-analysis of the deposited data

How the results depend on the processing

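Each of the 12 called GDSL genes kept its direction under the alternatives that gave it a value (AT2G23540 was removed by the filter on dim probe sets), except that under spike scaling AT2G38180 stood at -0.0024 and AT3G16370 at -0.049. Of all probe sets, 3805 were lower and 769 higher as deposited. These counts were 1011 and 892 after quantile normalization (53.1% of calls lower, against 83.2%), and 2424 and 1878 after median centring (56.3%). They were 8169 and 520 under spike scaling (94.0%), and 5809 and 1063 over the 11622 probe sets kept by the filter on dim ones. Under these 4 settings, in order, GDSL genes went to 2 lower and 6 higher, 5 and 9, 16 and 2, and 11 and 7. The last was over 25 genes. At an unadjusted p under 0.05 in limma, 17.9%, 15.4%, 46.2% and 44% of the genes were lower. The shares of all probe sets were 18.1%, 20.6%, 50.3% and 54.4%. Higher were 23.1%, 28.2%, 5.13% and 32% of the genes, against 13.3%, 27.8%, 3.62% and 9.98%. The family's median of -0.15 was -0.015, 0.051, -0.23 and -0.25 after quantile normalization, median centring, spike scaling and the filter. With pseudocounts of 1 and 64 it was -0.32 and -0.053. The median of all tested probe sets, -0.13 as deposited, moved alike. It was -0.0048, 0.070, -0.34, -0.30, -0.32 and -0.048 in the same order. Leaving out any 1 array gave 0 calls among all probe sets and among GDSL genes, with 5780 to 6459 probe sets at an unadjusted p under 0.05 in limma. With the replicate block there were 0 calls as well, with 11 GDSL genes lower (28.2%, against 30.3% of all probe sets) and 6 higher (15.4%, against 6.41%) at an unadjusted p under 0.05. The sample titles give the replicates only a number and do not say whether same-numbered arrays were grown or processed together. The deviations of same-numbered arrays correlated at r = 0.039 across probe sets, which cannot settle such a pairing. With the block, the fit had 1 residual degree of freedom, as had each fit without 1 array. With expressed set from a mean of 16, 3 genes were dim. Dim signals and 2 arrays per group limit what silent genes can show.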
